A study of Homo sapiens with 16 samples.

Results

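The genes of the proteasome were followed through 16 RNA-seq libraries of 3 human T-cell acute lymphoblastic leukaemia lines. Members were the entries whose symbol is PSMA, PSMB, PSMC, PSMD, PSME, PSMF or PSMG followed by a number, with pseudogenes and antisense entries left out. The rule found 50 of 57820 entries, and 47 of them reached a mean of 20 normalised read counts and were tested. By role they were 10 entries of the alpha ring, 4 structural and 3 catalytic subunits of the beta ring, 4 alternative catalytic subunits, 6 ATPases and 11 other subunits of the regulatory particle, 5 activators or inhibitors, 4 assembly factors of the core particle and 3 of the regulatory particle. Targeted cells were CUTLL1, KOPTK1 and HPB-ALL infected with lentivirus that carried CRISPR components against lnrCXCR4, a long non-coding RNA, and CUTLL1 and KOPTK1 given an antisense oligonucleotide (ASO) against it at 1 uM. Each of these 5 experiments had 2 targeted libraries. The guide controls carried a non-targeting guide (2 libraries in HPB-ALL, 1 each in CUTLL1 and KOPTK1), and the ASO controls got a scrambled ASO (1 library each in CUTLL1 and KOPTK1). Neither the type of CRISPR effector nor the clonality of the cells or the time of sampling is stated in the labels.

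The proteasome degrades proteins tagged with ubiquitin. Its core particle is a barrel of stacked rings: the outer alpha rings form the gate, and the inner beta rings hold 3 kinds of catalytic subunit. The regulatory particle caps the barrel. Its ubiquitin receptors and deubiquitinase handle the tagged protein, and its ring of ATPases unfolds it and feeds it in. In lymphoid and other immune cells, and in most cells given interferon gamma, the alternative subunits PSMB8, PSMB9 and PSMB10 take the places of PSMB5, PSMB6 and PSMB7, which gives the immunoproteasome. It makes many of the peptides that MHC class I molecules present. Dedicated chaperones assemble the rings and the base of the cap.

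The libraries held 34547469 to 72178929 reads as recovered from the deposited values, and the 50 entries took 0.662% to 0.869% of each library's normalised total. No entry of the table is named for lnrCXCR4 (0 found), so the targeting was not checked on its own RNA. T-lineage markers (CD3D, CD3E, CD3G, CD7, CD5 and CD2) were present in every library, with sums of 44322 to 53971 in targeted and 84982 to 99793 in control libraries. Sums over the B-lineage, myeloid, erythroid and epithelial markers stayed at or below 36.7 in targeted and 39.6 in control libraries. Guide and ASO libraries of a line lay far nearer to each other than to their controls, and 5 of 8 pairs were no further apart than the replicates of their line that differed most. The mean chi-square per gene, where 1 is counting noise alone, was 1.73 to 5.1 between guide and ASO libraries of targeted CUTLL1 and 3.79 to 14.5 in KOPTK1, with the highest values for pairs that hold guide replicate 2. Between the 2 libraries of a targeted group it was 2.34 to 3.74 in CUTLL1 and 4.1 to 6.75 in KOPTK1. A non-targeting guide library and a scrambled ASO library of the same line differed by 2.29 in CUTLL1 and 4.06 in KOPTK1, whereas targeted and control libraries differed by 168 to 305. Guide and ASO values are therefore given side by side and not as independent support for each other. Whether sgRNA1 and sgRNA2 (or ASO1 and ASO2) are different reagents or repeats is not settled by the labels. Nothing there names independent cultures, and the spread behind each p-value may thus be technical.

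Proteasome genes were called in both directions after targeting, in shares near those of all genes. Fold changes are log2 of targeted over control, on the scale of log2(normalised count + 1), from limma with cell line as a term, and a call is an adjusted p under 0.05. In the guide comparison (6 targeted and 4 control libraries) 15 of 47 tested members were higher, against 32.7% of all tested genes, and 16 were lower, against 35%. In the ASO comparison (4 targeted and 2 control libraries) 12 were higher, against 31.8% of all tested genes, and 17 lower, against 33.2%. The median member moved by -0.046 with guides and -0.076 with ASOs, and the median gene by -0.027 and -0.015. By role, 3 of 3 tested alternative and 3 of 3 constitutive catalytic subunits were called lower in both comparisons, and 6 of 11 non-ATPases of the regulatory particle were called higher and 5 not called with guides. No test compared the roles. In bulk RNA, fewer cells of a type and less RNA per cell cannot be told apart.

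Each of the 5 experiments was also tested on its own, in 1 fit of all 16 libraries that share an estimate of the spread, since 4 of them have a lone control. In CUTLL1 with guides 9 members were higher (30.8% of all genes) and 22 lower (31.5%). In KOPTK1 with guides 14 were higher (31% of all genes) and 16 lower (33.1%), and in HPB-ALL with guides 20 were higher (34%) and 17 lower (36.9%). With ASOs the counts were 10 higher (30.5% of all genes) and 19 lower (31.8%) in CUTLL1, and 13 higher (30.6%) and 15 lower (32.8%) in KOPTK1. PSMA4, PSMB4, PSMD1, PSMD2, PSMD3, PSMD9, PSMD10 and PSME4 were called higher in each of the 5 experiments, 8 of 47, against 19.8% of all genes. PSMB5 to PSMB10, PSMC3, PSMD5, PSMG2, PSMG3 and PSMG4 were called lower in each, 11 of 47, against 20.8% of all genes. These shares are near those of all genes, and 4 of the 5 experiments come from 2 lines. PSMB3 and PSMD12 were called in both directions in different experiments.

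**Figure D1:**
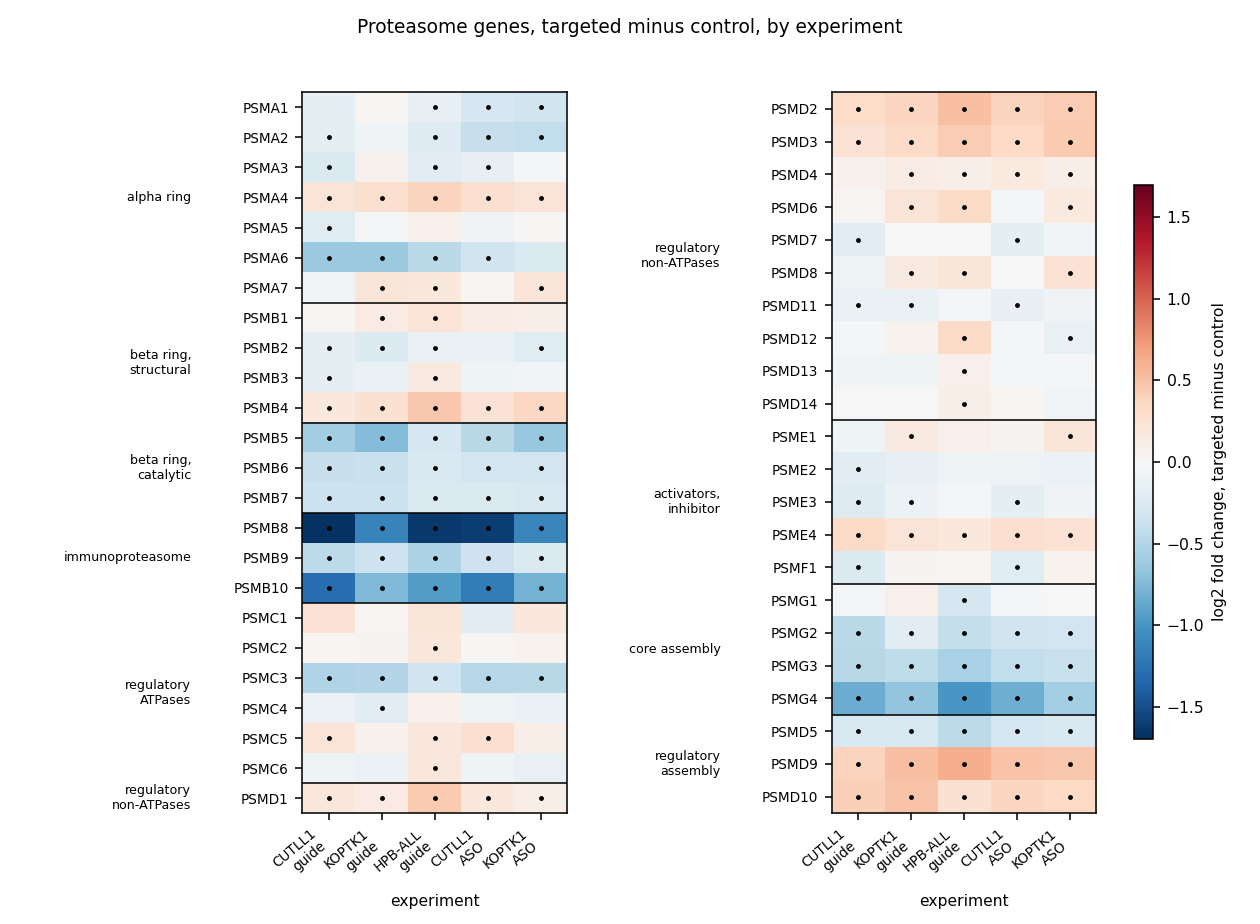
Log2 fold change of targeted over control libraries (colour, blue lower and red higher) for 46 proteasome genes in each of the 5 experiments, grouped by role, with a dot where the adjusted p was under 0.05. PSMB8 is the darkest blue gene in all 5 columns, and PSMD9, PSMD10, PSMD2 and PSMD3 are red in all 5. PSMA8, expressed in 1 line only, is left out.

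PSMB8 and PSMB10, alternative catalytic subunits of the immunoproteasome, fell furthest of the called members in both comparisons. PSMB8, which replaces the chymotrypsin-like subunit PSMB5, had 2759 and 2741 normalised read counts in guide-targeted CUTLL1 against 8851 in its control, 5211 and 4879 in guide-targeted KOPTK1 against 11047 in its control, and 2727 and 2533 in guide-targeted HPB-ALL against 8109 and 8226 in its controls. It had 2867 and 2813 normalised read counts in ASO-targeted CUTLL1 against 8674 in its control and 5236 and 4875 in ASO-targeted KOPTK1 against 10985 in its control. In every experiment both targeted libraries lay far below the control, with no overlap, and KOPTK1 kept the highest level both with and without targeting. Lack of overlap, here and for the genes below, sets no gene apart, since few tested members overlapped in any experiment. With guides, targeted and control libraries overlapped in 3 tested members in CUTLL1, 3 in KOPTK1 and 5 in HPB-ALL. With ASOs they overlapped in 2 in CUTLL1 and 2 in KOPTK1. The share of all genes without overlap was not counted, so these counts have no background to be read against. PSMB8 fell by 1.51 in the guide comparison (adjusted p 4.28e-07, SE 0.085) and by 1.37 in the ASO comparison (adjusted p 6.54e-05, SE 0.10).

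PSMB10, which replaces the trypsin-like subunit PSMB7, was the lowest per kilobase of exon of the 3 alternative subunits tested. With guides there were 339 and 323 normalised read counts in guide-targeted CUTLL1 against 814 in its control, 797 and 763 in guide-targeted KOPTK1 against 1315 in its control, and 523 and 469.8 in guide-targeted HPB-ALL against 988 and 924 in its controls. With ASOs there were 309.7 and 338 normalised read counts in ASO-targeted CUTLL1 against 738 in its control and 819 and 764 in ASO-targeted KOPTK1 against 1378 in its control. All 10 targeted libraries lay below the control of their experiment. PSMB10 fell by 0.99 in the guide comparison (adjusted p 6.56e-06, SE 0.088) and by 0.99 in the ASO comparison (adjusted p 0.000245, SE 0.10).

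PSMB9, which replaces the caspase-like subunit PSMB6, moved less. Its levels were 2193 and 2095 normalised read counts in guide-targeted CUTLL1 against 2926 in its control, 2882 and 2657 in guide-targeted KOPTK1 against 3536 in its control, and 2215 and 2009 in guide-targeted HPB-ALL against 3178 and 2964 in its controls. With ASOs there were 2301 and 2222 normalised read counts in ASO-targeted CUTLL1 against 2881 in its control and 2962 and 2878 in ASO-targeted KOPTK1 against 3463 in its control. No targeted library reached its control in either case. PSMB9 fell by 0.46 with guides (adjusted p 3.11e-05, SE 0.052) and by 0.30 with ASOs (adjusted p 0.000999, SE 0.043). PSMB11, the catalytic subunit of thymic cortical epithelium, stood at 2.68 or less in every library and was not tested. The T-lineage markers above fell in the same libraries, 6 of 6 in both comparisons. Of all genes, 35% were lower with guides and 33.2% with ASOs. Among these markers CD2 fell by 3.36 with guides (adjusted p 3.88e-09, SE 0.058). The part of these markers in the immunoproteasome result was not tested.

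**Figure D2:**
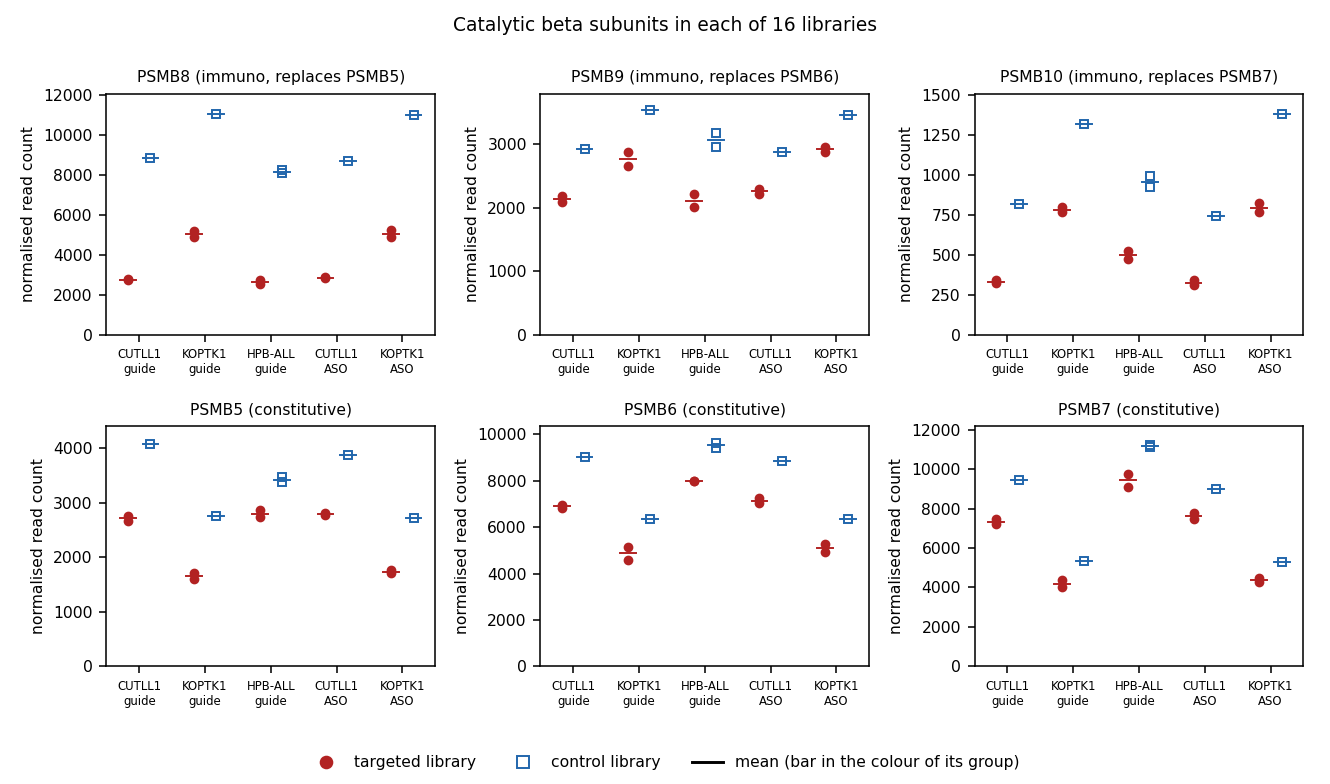
Normalised read counts of the 6 catalytic beta subunits in all 16 libraries, by line and method, with targeted libraries as filled circles to the left of their control libraries, drawn as open squares, and a bar at each mean. Targeted points lie below the control points in all 30 combinations of gene and experiment, with the widest gap for PSMB8 (2533 to 5236 in targeted and 8109 to 11047 in control libraries).

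The promoters of these 3 genes, and of PSMD3 and PSMD9 as genes that were called higher, are shown to place 2 short motifs near the start sites. They are RefSeq sequences of GRCh38.p14, from 150 bases before the start site to 10 after it, counting the start as 1 and the base before it as -1. Capitals mark an interferon-response-like motif (GAAANNGAA) in PSMB8 and PSMB10 and an antioxidant-response core (TGACNNNGC) in PSMB9, PSMD3 and PSMD9, each on either strand. The PSMB8 window is that of the second listed start (chr6:32844038-32844197, minus strand), since the window of the first holds a match to none of the motifs searched. PSMB9 is at chr6:32854042-32854201 (plus strand), PSMB10 at chr16:67936841-67937000 (minus strand), PSMD3 at chr17:39980657-39980816 (plus strand) and PSMD9 at chr12:121888640-121888799 (plus strand).
PSMB8: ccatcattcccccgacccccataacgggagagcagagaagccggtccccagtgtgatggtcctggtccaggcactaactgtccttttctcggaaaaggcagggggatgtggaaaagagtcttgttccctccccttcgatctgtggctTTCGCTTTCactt
PSMB9: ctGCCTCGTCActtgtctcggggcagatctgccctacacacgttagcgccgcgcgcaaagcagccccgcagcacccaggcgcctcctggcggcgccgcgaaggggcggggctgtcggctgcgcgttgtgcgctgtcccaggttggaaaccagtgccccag
PSMB10: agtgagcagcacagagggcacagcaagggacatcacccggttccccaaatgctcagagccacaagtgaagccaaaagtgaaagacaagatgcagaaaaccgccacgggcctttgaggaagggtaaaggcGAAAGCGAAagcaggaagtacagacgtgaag
PSMD3: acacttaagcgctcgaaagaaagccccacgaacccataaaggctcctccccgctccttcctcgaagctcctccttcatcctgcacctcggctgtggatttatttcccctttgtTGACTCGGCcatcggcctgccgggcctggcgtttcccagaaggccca
PSMD9: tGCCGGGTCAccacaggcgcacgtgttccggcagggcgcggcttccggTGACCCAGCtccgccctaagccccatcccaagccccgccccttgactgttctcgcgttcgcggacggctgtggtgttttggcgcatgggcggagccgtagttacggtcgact
The interferon-response-like motif spans -3 to 6 in PSMB8 and -21 to -13 in PSMB10, and the PSMB9 window holds no match to it. Interferon regulatory factors bind such motifs, and the NRF1 factor, which raises proteasome genes when proteasomes are inhibited, binds the antioxidant-response core together with small MAF proteins. RefSeq gave 51 windows of 300 bases for 42 member genes, and either strand was searched. The interferon-response-like motif was in 15.7% of member windows and 8.11% of all 35116 windows, and the antioxidant-response core in 29.4% and 13.3%. The CCAAT box (CCAAT) was in 39.2% and 34.6%, the gamma-activated-site motif (TTCNNNGAA) in 15.7% and 7.66%, and the E-box (CACGTG) in 5.88% and 7.26%. In the 5 printed stretches no match to 1 motif overlapped a match to another. Of 15 tested members with the antioxidant-response core, 7 were higher and 4 lower with guides, and of 26 without it, 5 were higher and 9 lower. The printed genes are thus no sample of the members. PSMD2, PSMD10 and PSMB4, not printed, rose without this core, and PSMD5 and PSMG2, not printed either, fell with it. Of 8 with the interferon-response-like motif, 3 were higher and 4 lower, and of 33 without it, 9 were higher and 9 lower. Over all tested genes 32.7% were higher and 35% lower with guides. These matches are letters in a window and show no binding.

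The constitutive catalytic subunits, the partners that the alternative ones replace, fell as well. PSMB5 had 2749 and 2671 normalised read counts in guide-targeted CUTLL1 against 4069.6 in its control, 1704 and 1605 in guide-targeted KOPTK1 against 2752 in its control, and 2855 and 2741 in guide-targeted HPB-ALL against 3466 and 3373 in its controls. It had 2812 and 2768 normalised read counts in ASO-targeted CUTLL1 against 3871 in its control and 1705 and 1756 in ASO-targeted KOPTK1 against 2709.8 in its control. The targeted libraries were below controls throughout, by the smallest margin in HPB-ALL. PSMB5 fell by 0.50 with guides (adjusted p 0.000166, SE 0.072) and by 0.56 with ASOs (adjusted p 0.000129, SE 0.051). PSMB6 had 6952 and 6844 normalised read counts in guide-targeted CUTLL1 against 9024 in its control, 5153 and 4588 in guide-targeted KOPTK1 against 6349 in its control, and 7997 and 7977 in guide-targeted HPB-ALL against 9434 and 9621 in its controls. With ASOs PSMB6 had 7050.1 and 7239 normalised read counts in ASO-targeted CUTLL1 against 8844 in its control and 5289 and 4936 in ASO-targeted KOPTK1 against 6335 in its control. It too was lower in every targeted library than in its control. PSMB6 fell by 0.33 with guides (adjusted p 7.88e-05, SE 0.042) and by 0.31 with ASOs (adjusted p 0.000526, SE 0.038). PSMB7 had 7450.2 and 7221 normalised read counts in guide-targeted CUTLL1 against 9456 in its control, 4356 and 4005 in guide-targeted KOPTK1 against 5361 in its control, and 9759.8 and 9095 in guide-targeted HPB-ALL against 11248 and 11130.1 in its controls. With ASOs PSMB7 had 7453 and 7775 normalised read counts in ASO-targeted CUTLL1 against 8987 in its control and 4474 and 4295 in ASO-targeted KOPTK1 against 5299.7 in its control. It was lower in each targeted library than in its control, and lowest in KOPTK1. PSMB7 fell by 0.31 with guides (adjusted p 8.04e-05, SE 0.040) and by 0.26 with ASOs (adjusted p 0.000895, SE 0.036). The calls of PSMB5 to PSMB10 held in every alternative that was run.

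The balance between each alternative subunit and its constitutive partner is given as the ratio of their counts per kilobase of exon, as a description. PSMB8 over PSMB5 was 0.949 and 0.97 in guide-targeted CUTLL1 against 2.06 in its control, 2.89 and 2.87 in guide-targeted KOPTK1 against 3.79 in its control, and 0.903 and 0.873 in guide-targeted HPB-ALL against 2.21 and 2.31 in its controls. With ASOs it was 0.964 and 0.961 in targeted CUTLL1 against 2.12 in its control and 2.9 and 2.62 in targeted KOPTK1 against 3.83 in its control. The PSMB8 ratio was thus lower in each targeted library than in its control, and highest in KOPTK1. PSMB10 over PSMB7 was 0.0366 and 0.036 in guide-targeted CUTLL1 against 0.0692 in its control, 0.147 and 0.153 in guide-targeted KOPTK1 against 0.197 in its control, and 0.0431 and 0.0416 in guide-targeted HPB-ALL against 0.0707 and 0.0668 in its controls. This ratio, too, was lower in each targeted library. PSMB9 over PSMB6 was 0.299 and 0.29 in guide-targeted CUTLL1 against 0.307 in its control, 0.529 and 0.548 in guide-targeted KOPTK1 against 0.527 in its control, and 0.262 and 0.238 in guide-targeted HPB-ALL against 0.319 and 0.292 in its controls. With guides it was lower in HPB-ALL and CUTLL1 and slightly higher in KOPTK1, and the ratios were not tested.

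**Figure D3:**
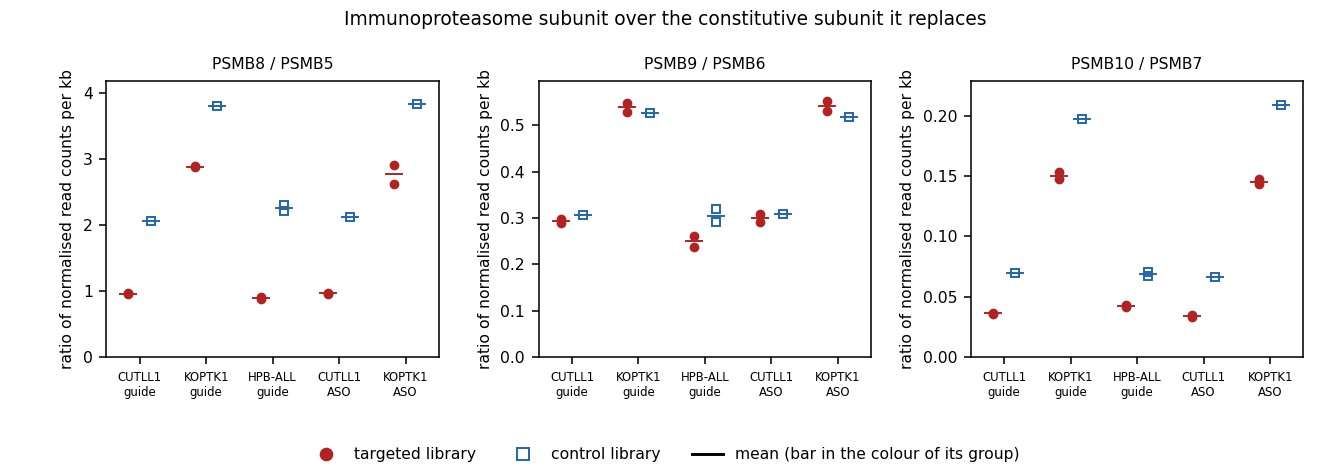
Ratio of normalised read counts per kilobase of exon, alternative over constitutive subunit, in all 16 libraries, with targeted libraries as filled circles left of their control libraries (open squares) and a bar at each mean. The PSMB8/PSMB5 and PSMB10/PSMB7 ratios of targeted libraries lie below their controls in all 5 experiments, while the PSMB9/PSMB6 points of targeted and control libraries lie close together in CUTLL1 and KOPTK1.

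Among the structural beta subunits 2 of 4 were higher, 1 lower and 1 not called in both comparisons. Over all genes 32.7% were higher and 35% lower with guides, and 31.8% and 33.2% with ASOs. PSMB4 had 16729 and 16553 normalised read counts in guide-targeted CUTLL1 against 14689.8 in its control, 15368 and 14036 in guide-targeted KOPTK1 against 12314 in its control, and 16885 and 16364 in guide-targeted HPB-ALL against 11986 and 12311 in its controls. With ASOs PSMB4 had 16960.4 and 17539.8 normalised read counts in ASO-targeted CUTLL1 against 14519.6 in its control and 15828 and 14716 in ASO-targeted KOPTK1 against 11927 in its control. It was above its controls in every experiment. PSMB4 rose by 0.32 with guides (adjusted p 0.000362, SE 0.051) and by 0.30 with ASOs (adjusted p 0.00105, SE 0.044). PSMB1 rose by 0.15 with guides (adjusted p 0.0145, SE 0.044) and by 0.11 with ASOs (adjusted p 0.0121, SE 0.028), and the ASO call was lost with quantile scaling, with the replicate block, in edgeR and without CUTLL1 ASO replicate 1. PSMB2 fell by 0.16 with guides (adjusted p 0.00146, SE 0.033) and by 0.16 with ASOs (adjusted p 0.0127, SE 0.040), and the ASO call was lost with the replicate block, at -0.14, and without the KOPTK1 ASO control, at -0.11.

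In the alpha ring, whose subunits gate the entry to the barrel, 2 of 8 tested entries were higher and 2 lower with guides. With ASOs 2 were higher and 3 lower. The shares of all genes were 32.7% and 35% with guides and 31.8% and 33.2% with ASOs. PSMA6 had 955 and 815 normalised read counts in guide-targeted CUTLL1 against 1368 in its control, 586 and 506 in guide-targeted KOPTK1 against 847 in its control, and 744 and 686 in guide-targeted HPB-ALL against 973 and 986 in its controls. It had 929 and 964 normalised read counts in ASO-targeted CUTLL1 against 1199.9 in its control and 766 and 659.5 in ASO-targeted KOPTK1 against 842 in its control. Targeted libraries were below their controls with both methods. PSMA6 fell by 0.56 with guides (adjusted p 8.4e-05, SE 0.072) and by 0.29 with ASOs (adjusted p 0.014, SE 0.077). The ASO call of PSMA6 was lost with quantile scaling, with the replicate block, in DESeq2 and without the CUTLL1 ASO control, at -0.25.

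PSMA4 was the alpha subunit that rose most. It had 15410.5 and 15365 normalised read counts in guide-targeted CUTLL1 against 13249 in its control, 12371 and 11542 in guide-targeted KOPTK1 against 9902 in its control, and 17708 and 17799 in guide-targeted HPB-ALL against 13764 and 13639.5 in its controls. With ASOs PSMA4 had 15125 and 15974 normalised read counts in ASO-targeted CUTLL1 against 12882 in its control and 11729 and 11442 in ASO-targeted KOPTK1 against 9962 in its control. Every targeted library lay above its controls. PSMA4 rose by 0.30 with guides (adjusted p 5.57e-05, SE 0.036) and by 0.24 with ASOs (adjusted p 0.00104, SE 0.035). PSMA2 fell by 0.16 with guides (adjusted p 0.0129, SE 0.047) and by 0.40 with ASOs (adjusted p 0.000748, SE 0.054), but with quantile scaling the guide value was -0.014 and not called. PSMA1 fell by 0.31 with ASOs (adjusted p 0.000968, SE 0.045) and was not called with guides, at -0.095 (adjusted p 0.115). PSMA7 rose by 0.12 with guides (adjusted p 0.0377, SE 0.045) and by 0.13 with ASOs (adjusted p 0.0409, SE 0.044), and both calls were lost under many alternatives, the guide call when any single KOPTK1 or HPB-ALL guide library was left out.

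PSMA8, a germ-cell relative of PSMA7 known from the spermatoproteasome, was expressed in 1 of the 3 lines. In KOPTK1 it had 401 and 406 normalised read counts with guides, against 813 in the control, and 391 and 408 with ASOs, against 781 in the control. In CUTLL1 and HPB-ALL it stood at 2.64 or less in every library. Targeted KOPTK1 libraries thus held about the same level with both methods and lay well below their controls. When KOPTK1 was fitted alone, a choice made after seeing the data, PSMA8 changed by -1.01 (adjusted p 1.37e-05, SE 0.095) with guides and by -0.97 (adjusted p 1.85e-05, SE 0.095) with ASOs. In limma it was not called when all lines shared 1 estimate of the spread, at -1.01 (adjusted p 0.176) with guides and -0.97 (adjusted p 0.195) with ASOs in KOPTK1. On the recovered reads, edgeR and DESeq2 called PSMA8 lower in both comparisons over the lines. The values were -1.02 in both with guides, and -0.97 and -0.96 with ASOs.

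Of the 6 ATPases of the regulatory particle, 2 were higher and 1 lower with guides, against 32.7% and 35% of all genes. With ASOs 1 was higher and 1 lower, against 31.8% and 33.2%. PSMC3 had 8776 and 8689 normalised read counts in guide-targeted CUTLL1 against 12488 in its control, 8668 and 8293 in guide-targeted KOPTK1 against 11980.3 in its control, and 11519 and 11049 in guide-targeted HPB-ALL against 14472 and 14122 in its controls. It had 8622 and 9009 normalised read counts in ASO-targeted CUTLL1 against 12302 in its control and 8787 and 8462 in ASO-targeted KOPTK1 against 11984 in its control. The targeted libraries were lower by a similar amount in CUTLL1 and KOPTK1 and by less in HPB-ALL. PSMC3 fell by 0.44 with guides (adjusted p 7.39e-06, SE 0.039) and by 0.48 with ASOs (adjusted p 4.92e-05, SE 0.034), and no other ATPase of the ring was called lower. PSMC5 rose by 0.16 with guides (adjusted p 0.00325, SE 0.037) and by 0.20 with ASOs (adjusted p 0.00967, SE 0.047). PSMC2 rose by 0.11 with guides (adjusted p 0.0237, SE 0.035), a call lost with quantile scaling, without the low-value filter and when any single HPB-ALL library was left out, and it had 0.039 with ASOs (adjusted p 0.358). PSMC4 and PSMC6 were not called in either comparison. PSMC1 stood at 117 to 232 in all libraries, far below the other ATPases, and the ASO value, -0.0059 (adjusted p 0.976), was positive with quantile scaling. Many of the pseudogene entries are copies of PSMC1, and the labels do not say how reads shared with them were counted, so its level is uncertain.

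Of the 11 remaining subunits of the regulatory particle, 6 were higher and 0 lower with guides, against 32.7% and 35% of all genes. With ASOs 4 were higher and 1 lower, against 31.8% and 33.2%. The class medians were 0.11 with guides and 0.067 with ASOs. In the HPB-ALL guide experiment 9 were higher and 0 lower, against 34% and 36.9% of all genes. In KOPTK1 6 were higher and 1 lower (31% and 33.1% of all genes), and in CUTLL1 3 and 2 (30.8% and 31.5%). HPB-ALL has 2 guide controls and the other lines 1, so its standard errors tend to be smaller. The counts were not compared between lines. PSMD2, a large scaffold that docks ubiquitin-binding proteins, had 27047 and 26977 normalised read counts in guide-targeted CUTLL1 against 21717 in its control, 21119 and 20451 in guide-targeted KOPTK1 against 16084 in its control, and 24331 and 24179 in guide-targeted HPB-ALL against 16801 and 17118 in its controls. It had 27147 and 27649 normalised read counts in ASO-targeted CUTLL1 against 21154 in its control and 21264 and 20879 in ASO-targeted KOPTK1 against 15614 in its control. All targeted libraries were above their controls. PSMD2 rose by 0.42 with guides (adjusted p 8.98e-06, SE 0.039) and by 0.40 with ASOs (adjusted p 5.88e-05, SE 0.030).

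PSMD3, a subunit of the lid, had 18635 and 17657 normalised read counts in guide-targeted CUTLL1 against 15244 in its control, 17772 and 16903 in guide-targeted KOPTK1 against 13789 in its control, and 21632 and 20394 in guide-targeted HPB-ALL against 15608 and 15414 in its controls. With ASOs PSMD3 had 18533 and 18513 normalised read counts in ASO-targeted CUTLL1 against 14674 in its control and 18821 and 17985 in ASO-targeted KOPTK1 against 13490.5 in its control. The groups did not overlap, as was the case for most tested members in each experiment. PSMD3 rose by 0.35 with guides (adjusted p 4.06e-05, SE 0.041) and by 0.39 with ASOs (adjusted p 0.000169, SE 0.038). PSMD1, a scaffold like PSMD2, had 15147 and 15482 normalised read counts in guide-targeted CUTLL1 against 13406 in its control, 10857 and 10889.9 in guide-targeted KOPTK1 against 9857 in its control, and 13996 and 13847 in guide-targeted HPB-ALL against 10124 and 10319 in its controls. With ASOs PSMD1 had 14899 and 15208 normalised read counts in ASO-targeted CUTLL1 against 13336 in its control and 10455 and 10490.5 in ASO-targeted KOPTK1 against 9664 in its control. It was above its controls throughout, by the widest margin in HPB-ALL. PSMD1 rose by 0.29 with guides (adjusted p 0.000826, SE 0.052) and by 0.15 with ASOs (adjusted p 0.00514, SE 0.030). The lid subunit PSMD6 rose by 0.21 with guides (adjusted p 0.00643, SE 0.054) and was not called with ASOs, at 0.067 (adjusted p 0.269). PSMD4, an intrinsic ubiquitin receptor, was among the called members with rises of 0.10 (adjusted p 0.0126, SE 0.030) and 0.14 (adjusted p 0.00589, SE 0.030). The deubiquitinase PSMD14 was not called, at 0.036 (adjusted p 0.352) and -0.0065 (adjusted p 0.884), and was named after its values were seen, as was PSMD4. PSMD11 fell by 0.10 with ASOs (adjusted p 0.0328, SE 0.032), a call lost in edgeR, in DESeq2, without the low-value filter, with the replicate block and when any of 4 single libraries was left out.

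The activators that can cap the barrel in place of the regulatory particle moved by small amounts. PSME1 and PSME2 form the interferon-inducible activator. PSME1 was not called in either comparison, at 0.064 (adjusted p 0.238) with guides and 0.12 (adjusted p 0.0602) with ASOs, while in KOPTK1 it rose by 0.16 with guides (adjusted p 0.0317, SE 0.057) and by 0.20 with ASOs (adjusted p 0.0089, SE 0.057). With KOPTK1 fitted alone the guide call was lost (adjusted p 0.0583) and the ASO call held (adjusted p 0.021). PSME2 fell by 0.12 with guides (adjusted p 0.0219, SE 0.039) and by 0.094 with ASOs (adjusted p 0.0451, SE 0.033). The guide call of PSME2 was lost without the low-value filter and without the CUTLL1 or the KOPTK1 guide control, and its ASO call under most alternatives. PSME3, the nuclear activator, fell by 0.10 with guides (adjusted p 0.0417, SE 0.038), a call lost when any of 7 single libraries was left out, without the low-value filter, with the replicate block and in edgeR. With ASOs PSME3 had -0.10 (adjusted p 0.0528), which passed under 4 alternatives, at -0.17 with quantile scaling. PSME4, an activator linked to histone degradation, had 9865 and 10474 normalised read counts in guide-targeted CUTLL1 against 8112 in its control, 7586 and 7669 in guide-targeted KOPTK1 against 6583 in its control, and 4579.5 and 4784 in guide-targeted HPB-ALL against 4167 and 4121 in its controls. With ASOs PSME4 had 9939 and 10052 normalised read counts in ASO-targeted CUTLL1 against 8219.6 in its control and 7528 and 7425 in ASO-targeted KOPTK1 against 6291 in its control. Targeted libraries were above controls in all 3 lines, at levels lowest in HPB-ALL. PSME4 rose by 0.23 with guides (adjusted p 0.000377, SE 0.037) and by 0.27 with ASOs (adjusted p 0.000296, SE 0.029). PSMF1, which encodes a proteasome-binding inhibitor, was not called over the lines, at -0.049 (adjusted p 0.382) and -0.073 (adjusted p 0.338), and in the CUTLL1 guide experiment it fell by 0.23 (adjusted p 0.000476, SE 0.042).

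Of the 4 PSMG assembly factors of the core particle, 3 were called lower in both comparisons, against 35% of all tested genes with guides and 33.2% with ASOs. The core maturation factor POMP, counted below among genes with other symbols, was not called with guides. PSMG4, the partner of PSMG3 in the chaperone pair that builds the alpha ring, had 643 and 577 normalised read counts in guide-targeted CUTLL1 against 1098 in its control, 957 and 959.8 in guide-targeted KOPTK1 against 1525 in its control, and 536 and 544 in guide-targeted HPB-ALL against 1058 and 1094 in its controls. It had 638 and 589 normalised read counts in ASO-targeted CUTLL1 against 1088 in its control and 1053 and 1024 in ASO-targeted KOPTK1 against 1552 in its control. The groups did not overlap in any experiment, and in each experiment most tested members showed no overlap. PSMG4 fell by 0.86 with guides (adjusted p 2.53e-06, SE 0.066) and by 0.70 with ASOs (adjusted p 0.000277, SE 0.076). PSMG3 had 1625 and 1519 normalised read counts in guide-targeted CUTLL1 against 2186 in its control, 2740.2 and 2444 in guide-targeted KOPTK1 against 3490.3 in its control, and 1971 and 1882 in guide-targeted HPB-ALL against 2772 and 2861 in its controls. With ASOs PSMG3 had 1634 and 1633 normalised read counts in ASO-targeted CUTLL1 against 2183 in its control and 2667 and 2699.7 in ASO-targeted KOPTK1 against 3481 in its control. It too was lower in each targeted library. PSMG3 fell by 0.49 with guides (adjusted p 1.08e-05, SE 0.047) and by 0.40 with ASOs (adjusted p 0.000152, SE 0.037). PSMG2, which pairs with PSMG1 in the other alpha-ring chaperone, had 4407 and 4233 normalised read counts in guide-targeted CUTLL1 against 5915 in its control, 3134 and 2929.9 in guide-targeted KOPTK1 against 3472 in its control, and 2731 and 2703 in guide-targeted HPB-ALL against 3512 and 3712 in its controls. With ASOs PSMG2 had 4332 and 4417 normalised read counts in ASO-targeted CUTLL1 against 5542 in its control and 2952 and 2779 in ASO-targeted KOPTK1 against 3584 in its control. PSMG2 was likewise lower throughout. PSMG2 fell by 0.36 with guides (adjusted p 0.000123, SE 0.049) and by 0.33 with ASOs (adjusted p 0.000386, SE 0.039). PSMG1 was not called, at -0.10 (adjusted p 0.166) and -0.02 (adjusted p 0.704), and in the HPB-ALL experiment it fell by 0.29 (adjusted p 5.91e-05, SE 0.041).

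The 3 assembly factors of the regulatory particle, which chaperone pairs of ATPases, split. PSMD9 had 766 and 712 normalised read counts in guide-targeted CUTLL1 against 569 in its control, 1279.6 and 1144 in guide-targeted KOPTK1 against 849 in its control, and 754 and 674 in guide-targeted HPB-ALL against 441 and 491 in its controls. With ASOs PSMD9 had 746 and 762 normalised read counts in ASO-targeted CUTLL1 against 539 in its control and 1319 and 1135 in ASO-targeted KOPTK1 against 893 in its control. Its targeted libraries lay above controls throughout. PSMD9 rose by 0.52 with guides (adjusted p 0.000125, SE 0.071) and by 0.47 with ASOs (adjusted p 0.00156, SE 0.074). PSMD10, also known as gankyrin, had 3744 and 3678 normalised read counts in guide-targeted CUTLL1 against 2795 in its control, 2798 and 2895 in guide-targeted KOPTK1 against 2025 in its control, and 3526 and 3571 in guide-targeted HPB-ALL against 2949.5 and 2966 in its controls. With ASOs PSMD10 had 3646 and 3613 normalised read counts in ASO-targeted CUTLL1 against 2815 in its control and 2782 and 2638 in ASO-targeted KOPTK1 against 2146 in its control. Again no targeted library overlapped a control of its line, and most tested members showed no overlap within each experiment. PSMD10 rose by 0.37 with guides (adjusted p 4.95e-05, SE 0.044) and by 0.35 with ASOs (adjusted p 0.000317, SE 0.039). PSMD5 moved the other way. It had 1966 and 2026 normalised read counts in guide-targeted CUTLL1 against 2395 in its control, 1676 and 1708 in guide-targeted KOPTK1 against 2042 in its control, and 1911 and 2022 in guide-targeted HPB-ALL against 2706 and 2647 in its controls. With ASOs PSMD5 had 1933 and 1951 normalised read counts in ASO-targeted CUTLL1 against 2379 in its control and 1571 and 1621 in ASO-targeted KOPTK1 against 1904 in its control. Here the targeted libraries were the lower ones throughout. PSMD5 fell by 0.34 with guides (adjusted p 0.000101, SE 0.046) and by 0.27 with ASOs (adjusted p 0.00119, SE 0.041).

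The antisense entries of 2 of these falling genes rose in the same libraries. PSMD5-AS1 had 3517 and 3633 normalised read counts in guide-targeted CUTLL1 against 2657 in its control, 3312 and 3296 in guide-targeted KOPTK1 against 2514 in its control, and 4757 and 4724 in guide-targeted HPB-ALL against 3243 and 3422 in its controls. It rose by 0.45 with guides (adjusted p 3.1e-06, SE 0.036) and by 0.45 with ASOs (adjusted p 6.2e-05, SE 0.034). PSMG3-AS1 rose by 0.51 with guides (adjusted p 0.000561, SE 0.087) and by 0.33 with ASOs (adjusted p 0.00348, SE 0.063). The library kit keeps strand, but the labels do not say whether strand was used in counting, so reads of a gene and its antisense partner may not be separated, and PSMD5, PSMG3 and PSMD6 are uncertain to that extent. PSMD6-AS2, the antisense entry of PSMD6, which rose with guides, was also higher, by 0.48 with guides (adjusted p 0.0473, SE 0.19) and without passing with ASOs, at 0.44 (adjusted p 0.0595), at a mean of 78.2. The 30 pseudogene entries had means of 11.4 or less. Second Ensembl entries under the symbols PSMA1 (0 in every library) and PSMA2 (0.95 to 8.06) were members by the rule and too low to test.

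The guide effect differed between the 3 lines for 25 of 47 members by an F test, against 43.7% of all tested genes. Without the low-value filter the count was 15. PSMD1 showed the largest F of the members, rising by 0.19 in CUTLL1, 0.14 in KOPTK1 and 0.45 in HPB-ALL (F 36.7, adjusted p 0.00019). PSMB8 changed by -1.69, -1.13 and -1.64 in the same order of lines (F 32.1, adjusted p 0.000304). PSMB5 changed by -0.59, -0.73 and -0.29 (F 27.3, adjusted p 0.000513). KOPTK1 thus had the smallest fall of PSMB8 and the largest of PSMB5 of the 3 lines. PSMB10 changed by -1.30 in CUTLL1, -0.75 in KOPTK1 and -0.95 in HPB-ALL (F 8.78, adjusted p 0.0165).

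Guides were also set against ASOs in CUTLL1 and KOPTK1. No member was called higher (0 of 47, against 0% of 14020 genes) or lower (0, against 0%) by limma, and over all genes edgeR called 0 and DESeq2 1. At an unadjusted p under 0.05 there were 5 members and 1393 genes. The smallest p among members belonged to 3 alpha subunits. With guides PSMA2 had 989 and 1005 normalised read counts in guide-targeted CUTLL1 against 1115 in its control, 859.6 and 867 in guide-targeted KOPTK1 against 903 in its control, and 718 and 725 in guide-targeted HPB-ALL against 836 and 849 in its controls. With ASOs it had 889 and 924 normalised read counts in ASO-targeted CUTLL1 against 1187 in its control and 723 and 745 in ASO-targeted KOPTK1 against 978 in its control. The guide effect minus the ASO effect was 0.29 in PSMA2 (adjusted p 0.496, SE 0.059), 0.25 in PSMA1 (adjusted p 0.496, SE 0.066) and -0.34 in PSMA6 (adjusted p 0.496, SE 0.12), and none of these 3 passed.

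Without targeting, the lines themselves differed in proteasome genes, as measured over 2 control libraries per line. KOPTK1 was lower than CUTLL1 in 30 of 47 members, against 37.8% of all genes, and higher in 12, against 38.3%. HPB-ALL was lower than CUTLL1 in 23 members (39.3% of all genes) and higher in 11 (40.1%). HPB-ALL was higher than KOPTK1 in 25 (39.7% of all genes) and lower in 17 (39.9%). The medians over members were -0.29, -0.10 and 0.10, and over all genes 0.0032, 0.0092 and 0.0047. With 1 guide and 1 ASO control in CUTLL1 and KOPTK1 but 2 guide controls in HPB-ALL, line and kind of control are partly mixed.

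KOPTK1 stood apart by a low constitutive and a high alternative catalytic set. The difference KOPTK1 minus CUTLL1 was -0.54 in PSMB5 (adjusted p 5e-06, SE 0.034), -0.49 in PSMB6 (adjusted p 1.27e-06, SE 0.024) and -0.79 in PSMB7 (adjusted p 3.78e-07, SE 0.029). It was positive in the alternative subunits, at 0.33 in PSMB8 (adjusted p 8.84e-06, SE 0.023), 0.27 in PSMB9 (adjusted p 0.00046, SE 0.038) and 0.80 in PSMB10 (adjusted p 1.96e-05, SE 0.064). HPB-ALL minus KOPTK1 had the opposite signs, called for each of the 6 genes, with -0.49 in PSMB10 (adjusted p 0.00024, SE 0.064) and 1.07 in PSMB7 (adjusted p 5.29e-08, SE 0.029). PSMA7 read 10074 with the guide control and 10163 with the ASO control in KOPTK1, against 24252 and 23612 in CUTLL1, a difference of -1.24 (adjusted p 2.62e-08, SE 0.025). KOPTK1 was the line with PSMA8, the relative of PSMA7. In HPB-ALL, the difference from CUTLL1 was -1.25 in PSMD6 (adjusted p 4.8e-08, SE 0.033), -0.98 in PSME4 (adjusted p 8.06e-08, SE 0.029) and 0.85 in PSMG1 (adjusted p 4.78e-07, SE 0.036).

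**Figure D4:**
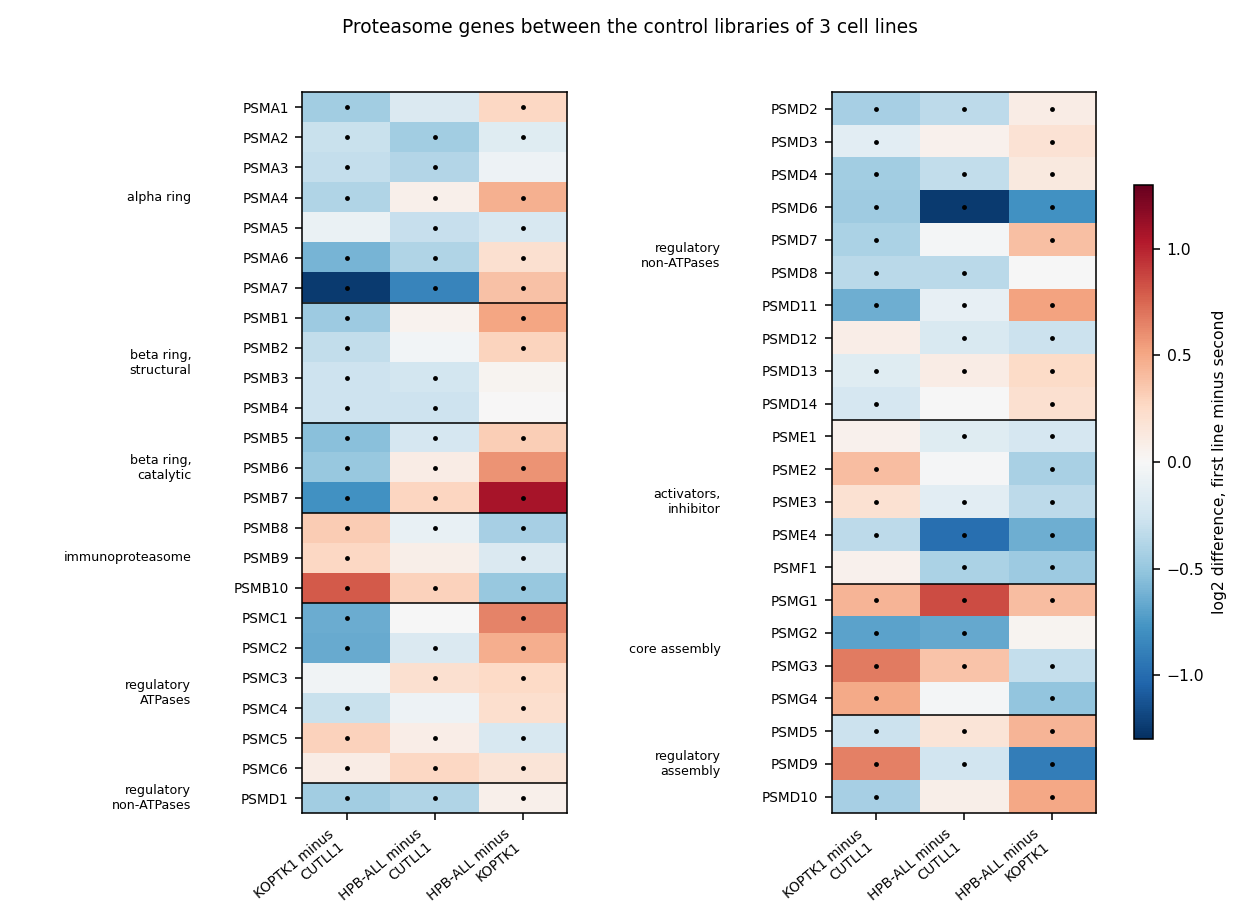
Log2 difference between the control libraries of the cell lines (2 libraries per line, first line minus second) for 46 proteasome genes grouped by role, with a dot where the adjusted p was under 0.05. The KOPTK1 minus CUTLL1 column is blue for most core and regulatory subunits and red for PSMB8, PSMB9 and PSMB10, and PSMD6 and PSME4 are the darkest blue cells of HPB-ALL minus CUTLL1. PSMA8, expressed in 1 line only, is left out.

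Levels between genes were compared per kilobase of merged exons (GENCODE release 29 on GRCh38, not the annotation behind the deposited table), over the 6 control libraries (SD over libraries of 3 lines). PSMB4, PSME1 and PSMB3 had the highest means over the lines, at 13442 ± 1335, 12345 ± 881 and 11815 ± 1112 normalised read counts per kilobase, and overlapped over the libraries. The order differed by line. PSMA7 was the highest in CUTLL1 controls, at 15263 against 15150.1 for PSMB4, PSME1 in KOPTK1 controls, at 13131 against 12573, and PSMB4 in HPB-ALL controls, at 12602. PSMB8 stood at 6014 ± 869, above its partner PSMB5 at 2304 ± 382. PSMB9 at 3429 ± 309 and PSMB10 at 842 ± 216 stood below their partners PSMB6 at 9481 ± 1740.0 and PSMB7 at 8755 ± 2726. Apart from PSMA8, PSMC1 and PSMB11, the lowest genes were the assembly factors PSMG4, at 213 ± 40.4, and PSMD9, at 226 ± 68.8. Subunits that occur in equal number in the particle thus spanned a wide range of counts per kilobase, with PSMA2 at 658 ± 97.4 and PSMA7 at 10039 ± 4142. Second entries share the symbols PSMA1 and PSMA2, and pseudogene entries are copies of PSMA2 and PSMA6. The labels do not say how reads shared with them were counted. The levels of PSMA1, PSMA2 and PSMA6, and with them this range, are therefore uncertain.

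Genes that work with the proteasome under other symbols were read from lists of known partners. Their counts stand beside 32.7% of all genes called higher and 35% lower with guides, and 31.8% and 33.2% with ASOs. Of 9 subunits and partners, 2 were higher and 4 lower with guides, and 2 higher and 5 lower with ASOs. KIAA0368, which encodes the proteasome adaptor ECM29, fell by 0.94 with guides (adjusted p 3.97e-08, SE 0.034) and by 0.88 with ASOs (adjusted p 9.54e-06, SE 0.035). PAAF1, a chaperone of the regulatory particle, fell by 0.42 (adjusted p 1.52e-05, SE 0.042) with guides, and AKIRIN2, which carries proteasomes into the nucleus, rose by 0.40 (adjusted p 8.41e-06, SE 0.037). The core maturation factor POMP, at 0.10 (adjusted p 0.0924), and the ubiquitin receptor ADRM1, at 0.11 (adjusted p 0.0593), were not called. Of 8 shuttle and VCP genes, 4 were higher and 3 lower with guides, and 4 higher and 2 lower with ASOs. VCP, the segregase that extracts ubiquitylated proteins, rose by 0.80 (adjusted p 1.23e-05, SE 0.078) with guides, and its cofactors NPLOC4 by 0.51 (adjusted p 1.69e-06, SE 0.037) and UFD1L by 0.42 (adjusted p 3.97e-06, SE 0.035).

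Of 6 ubiquitin and ubiquitin-activating genes, 4 were higher and 0 lower in both comparisons, with UBA6 rising by 0.41 (adjusted p 0.00103, SE 0.078) with guides. Beside the counts in this paragraph, 32.7% of all genes were higher and 35% lower with guides, and 31.8% and 33.2% with ASOs. Of 7 genes around NRF1, 1 was higher and 3 lower in both comparisons. NFE2L1, which encodes NRF1, was not called, at 0.12 (adjusted p 0.0808), and neither was DDI2, the protease that activates it, at 0.087 (adjusted p 0.0649). The small MAF genes MAFF, MAFG and MAFK had fold changes of -1.71 (adjusted p 0.00376, SE 0.40), -0.42 (adjusted p 0.0128, SE 0.12) and -0.43 (adjusted p 4.11e-05, SE 0.050) with guides, and each was called lower. MAFF stood at 2.86 or less in HPB-ALL and 26.7 or less in KOPTK1, so the size of its change is uncertain. MAFG moved little in guide-targeted CUTLL1, at 2895 and 2795 against 2915 in its control. It moved most in guide-targeted KOPTK1, at 1452 and 1449 against 2827 in its control.

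Of 9 tested entries for antigen processing and its interferon regulators, 2 were higher and 6 lower in both comparisons. Over all genes the shares were 32.7% higher and 35% lower with guides, and 31.8% and 33.2% with ASOs. The peptide-trimming ERAP1 fell by 1.06 (adjusted p 2.83e-08, SE 0.035) and ERAP2 by 1.13 (adjusted p 5.54e-08, SE 0.043) with guides. NLRC5, the transactivator of MHC class I genes, had 228 and 222 normalised read counts in guide-targeted CUTLL1 against 388 in its control, 1639 and 1586 in guide-targeted KOPTK1 against 3375 in its control, and 337 and 322 in guide-targeted HPB-ALL against 736 and 693 in its controls. It fell by 1.01 (adjusted p 1.23e-06, SE 0.069) with guides. The control libraries of KOPTK1 held more NLRC5 than those of CUTLL1, a difference of 3.02 (adjusted p 2.35e-08, SE 0.061). A relation between NLRC5 and the alternative subunits over the lines was not tested. The group did not move as one: B2M rose by 0.44 (adjusted p 2.19e-05, SE 0.047). TAP1, which lies next to PSMB9 in the MHC region and shares its promoter, was not called, at -0.029 (adjusted p 0.467), whereas PSMB9 fell.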

How the data were processed

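RNA-seq was made from 16 libraries with a directional kit, per the labels. The deposited signal is reads per gene that the authors divided by 1 factor per library: every value is a whole multiple of its column's step (tolerance 0.001). The submitters' processing notes name STAR 1.4.2, DESeq2 and hg19 without roles, and neither they nor the labels give the read counter, annotation or use of strand. Values were tested as log2(normalised count + 1) with limma 3.58.1 (trend, R 4.3.3) for genes with a mean of 20 or more, with Benjamini-Hochberg adjustment over all tested genes and a threshold of 0.05. Guide and ASO comparisons had cell line as a term. Single experiments, the F test over lines and guide minus ASO came from 1 fit of 10 group means over 16 libraries, and line differences from 6 controls. A lone control was assumed to vary like the other groups. Quasi-likelihood edgeR 4.0.16 and DESeq2 1.42.0 on the recovered reads, whole in 100% of values, were alternatives without CUTLL1 ASO replicate 1, whose factor near 1 leaves its reads unclear. In the guide comparison edgeR called 4850 genes higher and 5195 lower, DESeq2 4684 and 5158, and limma 4599 and 4920. Levels between genes were divided by exon length. The range of recovered reads over the libraries is given in the report.

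The members and gene lists were chosen with earlier results of these data known. In each role, members named with values were the 2 called members with the largest change per direction and comparison, all catalytic subunits, activators and core assembly factors, PSMA8, the 3 with the lowest F-test p and the 3 with the lowest p for guide minus ASO, and 2 per direction in each line difference. From other lists up to 3 genes per direction were named, and further names followed after values were seen (PSMC4, PSMC6, PSMD4, PSMD14, POMP, ADRM1, NFE2L1, DDI2, TAP1). The scripts were first tested on simulated counts.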

Additional observations from a re-analysis of the deposited data

Results flagged for a closer look

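For 16 of the 37 members chosen by the naming rule, the guide effect differed between the 3 lines by the F test of that difference (log2 fold changes in CUTLL1, KOPTK1 and HPB-ALL, in this order, with adjusted p over all tested genes under 0.05). Another 9 members outside that rule passed the same test, as did 43.7% of all tested genes. The rule itself took the 3 members with the lowest p of this F test, and others by their guide change. These 16 are thus a list and no separate evidence of line differences. The catalytic subunits among them were PSMB8 at -1.69, -1.13 and -1.64 (F 32.1), PSMB5 at -0.59, -0.73 and -0.29 (F 27.3) and PSMB10 at -1.30, -0.75 and -0.95 (F 8.78). In the rings, PSMA7 had -0.044, 0.21 and 0.17 (F 12.3) and PSMB4 0.18, 0.25 and 0.45 (F 8.2). In the regulatory particle, PSMD1 had 0.19, 0.14 and 0.45 (F 36.7), PSMD2 0.31, 0.37 and 0.52 (F 13.4) and PSMD6 0.022, 0.23 and 0.33 (F 11.7). The ATPase PSMC2 had 0.039, 0.045 and 0.19 (F 6.77), and PSMC3 -0.52, -0.50 and -0.34 (F 6.44). Among assembly factors, PSMG1 had -0.016, 0.083 and -0.29 (F 18.4), PSMG2 -0.45, -0.20 and -0.41 (F 6.75), PSMD10 0.41, 0.49 and 0.26 (F 9.39) and PSMD5 -0.26, -0.27 and -0.45 (F 5.86). The inhibitor PSMF1 had -0.23, 0.04 and 0.014 (F 13.6) and the activator PSME3 -0.22, -0.11 and -0.013 (F 9.83). CUTLL1 and KOPTK1 have 1 guide control each, so a line's value rests on that library, and the part of a lone control in these differences was not tested.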

How the results depend on the processing

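Counts of called members and values of named members were recomputed with another pseudocount, other filters, other scaling, edgeR, DESeq2, the replicate block, and each library left out. Over these, 1634 values of named members kept their direction and their side of the threshold, 65 lost the call, 18 gained one and 11 changed sign. Of the counts of called members, 548 stayed within 1.5 times of the count as reported and 2 moved by more. Without the low-value filter, the lines differed in 15 members by the F test, against 25, and guide minus ASO called 1 member higher, against 0. The calls of PSMB5 to PSMB10, PSMG2, PSMG3, PSMG4, PSMD1, PSMD2, PSMD3, PSMD5, PSMD9, PSMD10, PSMC3, PSMC5, PSMA4, PSMB4 and PSME4 held under all of these. Sign changes came in genes with values near 0 in the comparison as reported. PSMF1 was 0.024 without the CUTLL1 guide control and 0.061 with ASOs without the CUTLL1 ASO control. With ASOs, PSMG1 was 0.0071 in DESeq2 and 0.0031 without CUTLL1 ASO replicate 1, PSMC2 was -0.0041 with quantile scaling, and PSMD6 was -0.033 without the KOPTK1 ASO control. PSMC1 with ASOs was 0.31 with quantile scaling, 0.098 in edgeR, 0.11 in DESeq2, and 0.18 and 0.10 without the CUTLL1 ASO control and CUTLL1 ASO replicate 1. Over single libraries left out, PSMC1 ranged from -0.19 to 0.18, PSMD6 from -0.033 to 0.17, PSMF1 from -0.21 to 0.061 and PSMG1 from -0.038 to 0.0031 with ASOs, and PSMF1 from -0.084 to 0.024 with guides. Without a line's lone control, the targeted libraries of that line no longer count in the comparison. With ASOs the value left is then that of the other line alone. It was 0.061 for PSMF1 and 0.18 for PSMC1 in KOPTK1, and -0.033 for PSMD6 in CUTLL1. Such changes, and calls lost in this way, show the other line and not the noise of 1 library. The cause of the other changes was not tested. Quantile scaling moved the median of all genes to 0.07 in both comparisons, against -0.027 with guides and -0.015 with ASOs. With the replicate block, guides called 15 members higher and 15 lower, and ASOs 10 and 13. Same-numbered libraries did not deviate together (correlations of -0.014 to 0.065), so the numbers do not pair them. With 1 control in 4 of 5 experiments, small changes of low genes such as PSMC1 are not resolved.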

Other observations

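PSMB3, a structural subunit of the beta ring, and PSMD12, a lid subunit, were called in opposite directions in different experiments. They were named after their values were seen. PSMB3 changed by -0.15 with guides in CUTLL1 (adjusted p 0.0162, SE 0.047), by -0.11 in KOPTK1 (adjusted p 0.062, SE 0.047) and by 0.15 in HPB-ALL (adjusted p 0.00326, SE 0.038). Its levels were 9291 and 9400.1 normalised read counts in guide-targeted CUTLL1 against 10354 in its control, 7999 and 7667 in guide-targeted KOPTK1 against 8439.6 in its control, and 9949 and 9421 in guide-targeted HPB-ALL against 8638 and 8756 in its controls. Over the lines PSMB3 had -0.0068 with guides (adjusted p 0.919), and the F test of the difference between lines gave F 16, adjusted p 0.00297. PSMD12 changed by -0.025 with guides in CUTLL1 (adjusted p 0.638, SE 0.042), by 0.058 in KOPTK1 (adjusted p 0.247, SE 0.042) and by 0.32 in HPB-ALL (adjusted p 4.54e-06, SE 0.034). Its levels were 4419 and 4328 normalised read counts in guide-targeted CUTLL1 against 4448 in its control, 4585 and 4680.2 in guide-targeted KOPTK1 against 4449 in its control, and 4705 and 4916 in guide-targeted HPB-ALL against 3754 and 3939 in its controls. The F test of its difference between lines gave F 24, adjusted p 0.000798. With ASOs PSMB3 changed by -0.069 in CUTLL1 (adjusted p 0.223) and by -0.041 in KOPTK1 (adjusted p 0.471), and PSMD12 by -0.025 (adjusted p 0.635) and -0.13 (adjusted p 0.0193). The lower call of PSMD12 rests on the lone KOPTK1 ASO control, at 4886 against 4449 in the KOPTK1 guide control, and was lost with KOPTK1 fitted alone (adjusted p 0.0519) and in DESeq2 (adjusted p 0.0745).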
